A study of Rattus norvegicus with 4 samples.

Results

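The genes described here encode voltage-gated and potassium ion channels of heart muscle cells, in rows of 1 table of normalised read counts whose symbol starts with Kcn, Hcn, Scn or Cacn. The gene Cacna1c was left out by rule and is not analysed here. The other genes were kept if annotated as protein coding and if at least 2 of the 4 libraries had a value of 10 or more. This was done without regard to group and left 59 genes of 16290 in the table. The libraries came from cultured neonatal rat cardiomyocytes, taken at postnatal day 3, that had been given an adenovirus vector, a viral gene carrier, encoding either mock, the control, or Pdk3. Each group had 2 libraries, named Mock 1, Mock 2, Pdk3 1 and Pdk3 2, and both groups had the same culture in medium with 5% horse serum. The labels name no strain, promoter, dose or time after the vector, and do not tell whether the libraries of a group stem from different cultures or animals. P-values here cover the spread between those libraries alone, and it may be technical. Pdk3 encodes a kinase that inhibits the pyruvate dehydrogenase complex, and the comparison asks how transcript levels differ when it is expressed.

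An action potential of a heart muscle cell is shaped by channels that open and close in sequence. Sodium channels carry the upstroke, calcium channels the plateau that triggers contraction, and several kinds of potassium channel the repolarisation and the resting potential, while pacemaker channels carry an inward current in cells that beat on their own. Most channels are assembled from pore-forming subunits, named alpha subunits in sodium and voltage-gated potassium channels, and auxiliary subunits that alter gating or the number of channels at the surface. Maturation of the heart after birth goes with a change in which of these genes are used.

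Pdk3 itself stood at 396 and 411 normalised counts in Mock 1 and Mock 2, against 1218 and 1177 in Pdk3 1 and Pdk3 2, and vector transcripts are not separated there from those of the endogenous gene. Normalised counts summed to between 4448199 and 4476649 per library, from an estimated 4139109 to 4707140 reads in genes. Within each group the libraries differed by less than counting noise, with a chi-square of 0.553 per gene in the mock pair and of 0.547 in the Pdk3 pair, where counting noise alone gives about 1. The test by limma therefore rests on a spread below counting noise. Each call is also given with p floored at counting noise, that is, limma's p is replaced by an exact binomial p computed from the reads of each group wherever the latter is larger. The cardiomyocyte label was checked against 10 listed markers, of which Ttn was not analysed here; each of the other 9 had counts in every library, and their summed count was 22236 to 22493 in mock and 22913 to 23278 with Pdk3. Markers of other cells were present as well, and 8 macrophage and leukocyte markers summed to 1283 to 1360 in mock and to 1031 to 1076 with Pdk3. The sums were 979 to 1039 and 921 to 944 for 6 endothelial markers, 293 in both mock libraries and 214 to 241 with Pdk3 for 6 mesothelial markers, 5416 to 5484 and 5265 to 5416 for 7 fibroblast markers, and 3976 to 4029 and 4359 to 4440 for 7 smooth muscle and pericyte markers. Of 7 neuron and Schwann cell markers in the table, 2 reached the level minimum, with sums of 204 in both mock libraries and of 198 to 207 with Pdk3. No listed marker in the table was at 0 in all 4 libraries. These sums hide members that moved apart. Of 6 endothelial markers Kdr (467 and 502 in mock, 536 and 527 with Pdk3) lay higher without overlap of the groups. Another 3 lay lower, such as Cdh5 (184 and 195, 134 and 129), and 2 overlapped. Of 5 mesothelial markers tested Krt19 (66 and 63, 30 and 35) and Lrrn4 lay lower, Wt1 lay higher, and 2 overlapped. Of all genes tested 29.9% lay higher and 31.1% lower without overlap. The part of other cells in the results below was not tested. In bulk samples fewer cells of a type and less RNA per cell cannot be told apart.

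With Pdk3, channel genes moved in both directions and by modest amounts. Among potassium channel genes, Kcnk3, Kcnj3, Kcnj5, Kcnj11, Kcng4 and Kcnv2 fell, with changes in the mean normalised count of -30.7% to -14.7%, and Kcnq5 rose by 24.2%. Of the sodium channel genes, Scn4b fell by 36.4%, whereas Scn1a rose by 0.32 on the log2 scale. The calcium channel genes Cacna2d1, Cacna2d2 and Cacna1s and the pacemaker channel gene Hcn2 rose by 9.9% to 18.2%. Each gene named in these sentences passed limma's test with adjusted p below 0.05, and also passed with p floored at counting noise.

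Over the 59 members 7 were higher and 12 lower at that threshold. Of all 12838 genes tested 22.9% were called, 11.7% as higher and 11.3% as lower, against 11.9% and 20.3% of the members. The share of higher members was therefore near the background, and the share of lower members was above it, a description that was not tested. Kcnab1 reached the level minimum through the mock libraries alone and so had to be lower in the others. Without it 7 of 58 members were higher and 11 lower. With p floored at counting noise 6 members were higher and 8 lower, 10.2% and 13.6% of the 59, against 8.39% and 7.45% of all genes. The median log2 fold change was -0.04 for the members and -0.01 for all genes tested. The values of the groups did not overlap in 11 members that were higher with Pdk3 and 22 that were lower, 18.6% and 37.3%, against 29.9% and 31.1% of all genes.

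Calls were more frequent at higher counts. Of the 39 members with a mean of 50 or more 7 were higher and 10 lower, 17.9% and 25.6%. Of all genes at that level 13.3% were higher and 12.8% lower, 26.1% in all. Both member shares thus lay above the background at that level, which was not tested. Of the 20 members below it 0 were higher and 2 lower. Of all genes below it 3.99% were higher and 4.21% lower, 8.2% in all. A scaling that makes the median ribosomal protein gene equal in all libraries shifts nearly all genes down by 0.09 on the log2 scale, and with it 5 members were higher and 20 lower. The share of higher among called genes was 36.8% for the members as reported, against 50.8% over all genes. With ribosomal protein genes set level, 928 of all genes were higher and 3574 lower, a share of 20.6%. The share from the 5 higher and 20 lower members was then nearly the same. The lower share of higher calls among the members was therefore not seen with that scaling. This covers only the balance among called genes. Counted over all genes, 20 of 59 members were then lower, against 3574 of 12838 genes tested, a difference that was not tested. Levels are not compared between genes here, because transcript lengths were not used.

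**Figure D1:**
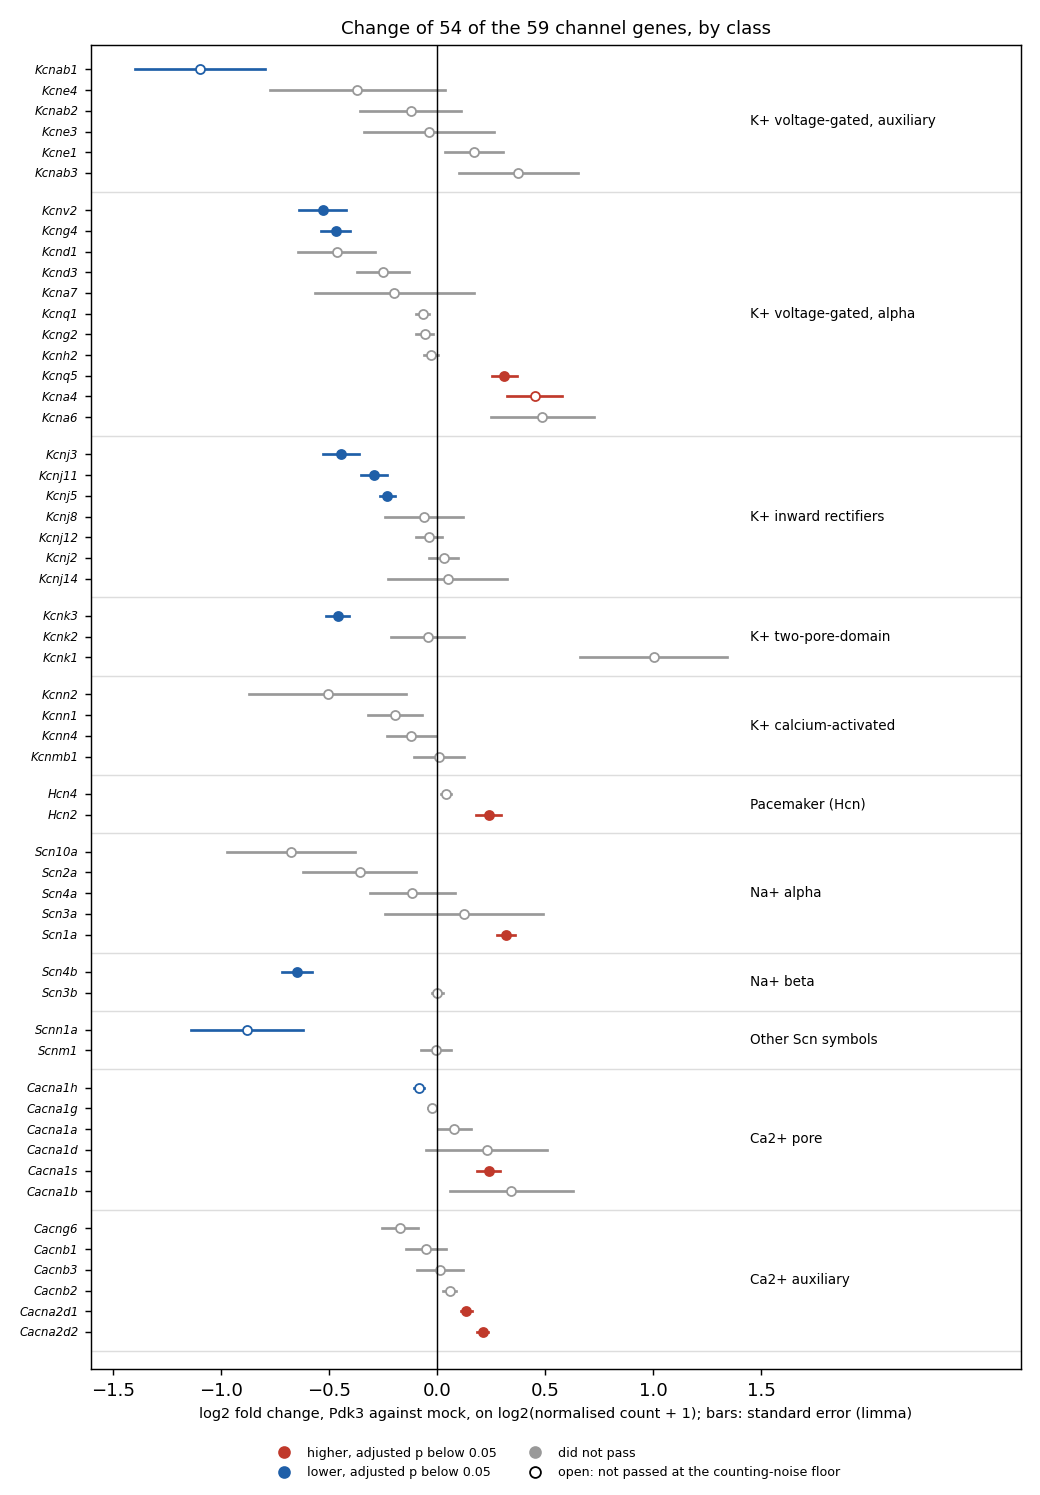
Log2 fold change of 54 of the 59 channel genes (Pdk3 against mock, on the log2(normalised count + 1) scale) with limma's standard error as a bar, grouped by channel class. Red and blue points are higher and lower genes past the threshold, grey points did not pass, and open symbols did not pass with p floored at counting noise. Of 7 inward rectifiers 3 passed and lie left of 0, and of 6 calcium channel auxiliary subunits 2 passed and lie right of 0. In both classes the genes that did not pass lie on both sides of 0.

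Among the members that reached the level minimum by least were Kcna7 (13 and 8 in mock, 11 and 7 with Pdk3) and Kcne4 (11 and 9, 5 and 11). Just outside it were Kcnn3 (9 and 7, 14 and 8), Scn8a (8 and 9, 8 and 10) and Kcnmb4 (10 and 9, 8 and 6). In all, 50 protein coding genes with these symbols stayed below the minimum, and 1 more row was not protein coding. No value among these 51 rows was above 14, and 2 of them, Kcnk15 and Scnn1b, were listed at 0 in each library. Below the minimum were also Kcna5, which carries an ultrarapid repolarising current in atria, with values of 7, 6, 2 and 4, and Kcnma1, the large-conductance calcium-activated channel, with 2, 1, 1 and 0. Its smooth muscle partner Kcnmb1 did reach the minimum.

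The 250 bases before the annotated start are shown for a pair of genes that fell and 1 that rose, to set side by side the regions in front of genes that moved in opposite directions. They are RefSeq sequences of the build GRCr8, which differs from the build rn6 of the deposited table, and 35 of the 59 members had an entry. Kcnj5 lies on the minus strand and its region is chr8:39011097-39011346, Scn4b lies on the plus strand at chr8:54343623-54343872, and Cacna2d2 on the plus strand at chr8:116950856-116951105. Capitals mark the GC box, GGGCGG read on either strand.
Kcnj5: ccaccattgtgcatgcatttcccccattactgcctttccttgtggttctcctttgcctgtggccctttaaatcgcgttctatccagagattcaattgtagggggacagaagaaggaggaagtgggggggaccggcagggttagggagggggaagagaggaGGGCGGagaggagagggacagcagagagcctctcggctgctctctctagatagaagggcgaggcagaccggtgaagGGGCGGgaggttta
Scn4b: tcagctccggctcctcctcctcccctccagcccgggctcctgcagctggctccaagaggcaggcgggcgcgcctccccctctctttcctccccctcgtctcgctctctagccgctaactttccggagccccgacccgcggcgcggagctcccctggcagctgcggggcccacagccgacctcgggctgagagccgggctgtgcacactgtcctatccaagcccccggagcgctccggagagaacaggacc
Cacna2d2: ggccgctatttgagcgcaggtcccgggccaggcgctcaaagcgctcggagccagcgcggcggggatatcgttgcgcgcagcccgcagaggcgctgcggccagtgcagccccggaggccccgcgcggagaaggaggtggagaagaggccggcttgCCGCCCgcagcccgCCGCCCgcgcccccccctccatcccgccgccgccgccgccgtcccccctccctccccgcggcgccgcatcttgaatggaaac
The region of Kcnj5 held 2 GC boxes with a GC content of 57.2%, that of Scn4b 0 with 71.6%, and that of Cacna2d2 2 with 76.8%. A GC box on either strand was found before 17 of 35 members (48.6%) and before 59.6% of the 9505 tested genes with an entry. AGATAA, which a family of heart transcription factors can bind, was found on either strand before 5 members (14.3%) and before 5.4% of those genes. The TATA box, TATAAA, was found before 1 member, Cacna1s, and before 6.47% of genes. An E2F motif, TTTNNCGC, was found before 2 members (5.71%) and before 7.3% of genes. These are matches of letters in a window at 1 annotated start per gene, with no measurement of binding.

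Inward rectifiers pass potassium more easily into the cell than out of it and hold the resting potential. Of 7 measured genes 3 fell and 0 rose, with a class median of -0.06 on the log2 scale. Of all genes tested 11.7% were called higher and 11.3% lower. The counts of this class and of those below stand beside these shares, and no class was tested against them. Kcnj3 and Kcnj5 encode the subunits that together form the acetylcholine-activated potassium channel of atrial and nodal cells. Kcnj3 (ENSRNOG00000005369, rn6 chromosome 3, 41019898 to 41181070, plus strand) had 166 and 158 normalised counts in mock and 124 and 114 with Pdk3. Both Pdk3 libraries lay below both mock libraries, and the log2 fold change was -0.44 ± 0.08 (SE; adjusted p = 0.00858, and 0.00928 floored at counting noise). Kcnj5 (ENSRNOG00000033796, rn6 chromosome 8, 33433905 to 33463467, minus strand) had 975 and 965 in mock and 800 and 855 with Pdk3, again without overlap, and its log2 fold change was -0.23 ± 0.04 (adjusted p = 0.00358, floored 0.00366). Thus both genes of this channel fell.

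Kcnj11 encodes the pore of the ATP-sensitive potassium channel of the cell membrane, which opens when ATP is low. Its counts were 536 and 480 in mock and 400 and 429 with Pdk3, a fall from 508.0 ± 39.6 to 414.5 ± 20.5 (SD, n = 2 each), or -0.29 ± 0.06 on the log2 scale (limma's adjusted p was 0.0125, floored 0.0139). Kcnj8, the other pore gene of such channels, ranged from 59 to 79 in mock and from 58 to 74 with Pdk3, with overlapping groups and a log2 fold change of -0.06 (95% confidence interval -0.48 to 0.36). Kcnj2 and Kcnj12 encode the channels of the strong inward rectifier current that sets the resting potential of ventricular cells. Kcnj2 had 180 and 177 in mock and 177 and 188 with Pdk3, a log2 fold change of 0.03 with a 95% confidence interval of -0.13 to 0.19 whose sign turned when ribosomal protein genes were set level. Kcnj12 had 198 and 207 in mock and 199 and 196 with Pdk3 (log2 fold change -0.04, interval -0.18 to 0.11). Neither passed the test. Kcnj14 had 20 and 35 in mock and 29 and 26 with Pdk3.

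Tandem-pore potassium channels carry a background leak current. Kcnk3, an acid-sensitive channel of this class, fell. Its counts (ENSRNOG00000009790, rn6 chromosome 6, 27151612 to 27190132, minus strand) were 323 and 306 in mock and 226 and 231 with Pdk3. The groups stood well apart, with a mean of 314.5 ± 12.0 against 228.5 ± 3.5 and a log2 fold change of -0.46 ± 0.05 (adjusted p = 0.00104 by limma, and 0.00104 floored). The stretch-sensitive Kcnk2 had 44 and 44 in mock and 38 and 48 with Pdk3, which overlap. Kcnk1 had 14 and 7 in mock and 22 and 20 with Pdk3, a log2 fold change of 1.00 ± 0.34 that did not pass (adjusted p = 0.0718) and ranged from 0.55 to 1.46 with 1 library left out. It passed when ribosomal protein genes were set level (adjusted p = 0.0402).

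**Figure D2:**
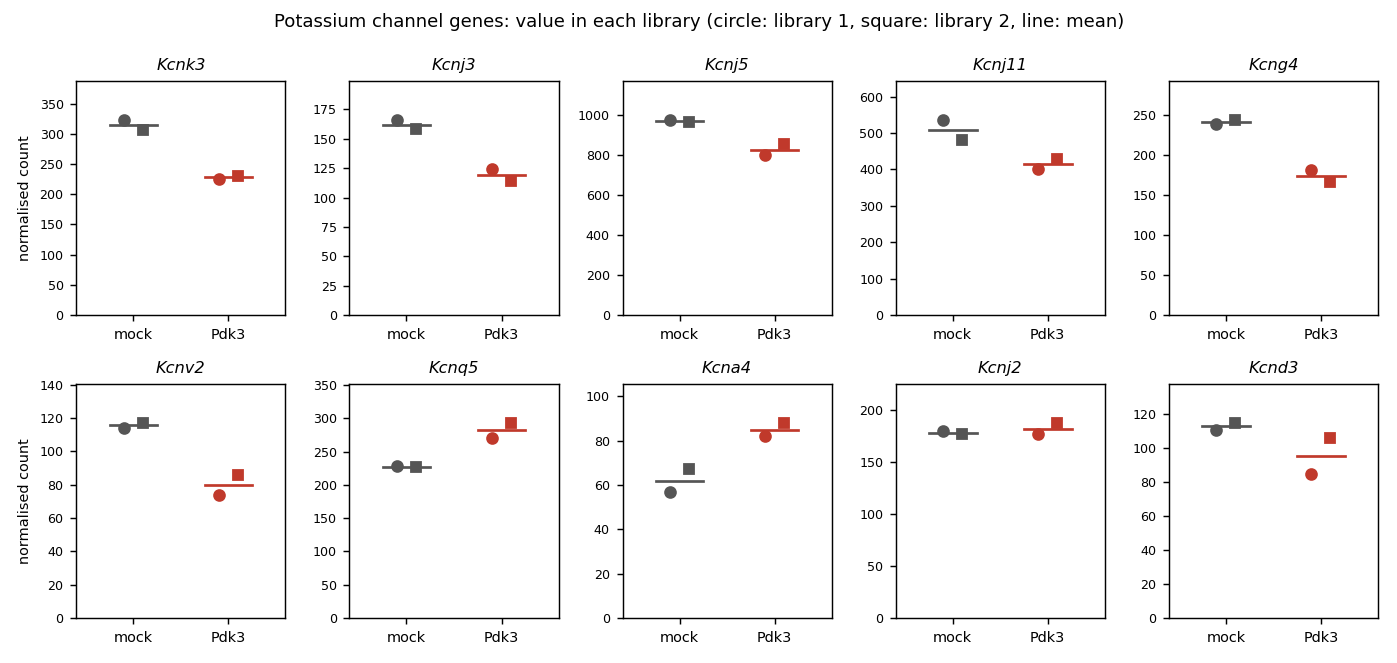
Normalised count of 10 potassium channel genes in each library, mock in grey and Pdk3 in red, with a line at the group mean and each vertical axis starting at 0. In the panels from Kcnk3 to Kcnv2 both Pdk3 libraries lie below both mock libraries, in those of Kcnq5 and Kcna4 above them, and in that of Kcnj2 the groups overlap.

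Voltage-gated potassium channels open on depolarisation and repolarise the cell. Of 13 measured alpha subunit genes 2 rose and 3 fell, with a class median of -0.07. The falls included Kcng4 and Kcnv2, which encode electrically silent subunits that form channels only together with other alpha subunits. Kcng4 had 239 and 244 in mock and 182 and 167 with Pdk3, and Kcnv2 had 114 and 117 against 74 and 86. In both genes the groups were apart, and the log2 fold changes were -0.47 ± 0.07 (adjusted p = 0.00264, floored 0.00266) and -0.53 ± 0.11 (adjusted p = 0.0127, floored 0.0143). Kcng2, a further silent subunit gene, had 439 and 422 in mock and 416 and 412 with Pdk3, close values without overlap (log2 fold change -0.06 ± 0.04, adjusted p = 0.356). It passed as lower when ribosomal protein genes were set level (-0.14, adjusted p = 0.026).

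In the other direction, Kcnq5, of the family of slowly activating channels, rose from 228 and 226 in mock to 271 and 293 with Pdk3, by 0.31 ± 0.06 on the log2 scale (adjusted p = 0.00874, floored 0.00946). Kcna4, a rapidly inactivating channel of the transient outward current, had 57 and 67 in mock and 82 and 88 with Pdk3. The groups were apart and limma's test was passed (log2 fold change 0.45 ± 0.13, adjusted p = 0.0403), but not with p floored at counting noise (0.0514). Kcnd3 and Kcnd1, also of that current, had the opposite sign without passing. Kcnd3 had 111 and 115 in mock and 85 and 106 with Pdk3 (log2 fold change -0.25, adjusted p = 0.184, and -0.41 to -0.09 with 1 library left out). Kcnd1 had 37 and 38 against 25 and 29 (-0.46, adjusted p = 0.105). Kcnd2 and Kcnip2, which also belong to that current, were not analysed here. Kcnq1 and Kcnh2 carry the slow and the rapid delayed rectifier currents, on which repolarisation of large hearts depends. Kcnq1 had 797 and 779 in mock and 767 and 739 with Pdk3 (log2 fold change -0.07, 95% confidence interval -0.14 to 0.01), and Kcnh2 had 775 and 791 against 751 and 786 (-0.03, interval -0.10 to 0.05). Neither passed, although both passed as lower when ribosomal protein genes were set level (adjusted p = 0.00209 and 0.0276), as did Kcnd3 (0.0382) and Kcnd1 (0.047). Kcna6 (13 and 15, 21 and 19) stayed at low counts and did not pass.

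Auxiliary subunits of these channels were measured for 6 genes, of which 0 rose and 1 fell. Kcnab1, a cytoplasmic beta subunit, had 17 and 15 in mock and 6 and 8 with Pdk3. Since it entered through its mock values, its log2 fold change of -1.10 (adjusted p = 0.0359, floored 0.0919) is given as a description. Kcne1, the partner of Kcnq1 in the slow delayed rectifier, had 70 and 65 in mock and 69 and 84 with Pdk3, which overlap (adjusted p = 0.402). Kcnab2 and Kcnab3 ranged from 21 to 42 over the 4 libraries and did not pass, and Kcne3 ranged from 11 to 18.

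Calcium-activated potassium channel genes had 0 of 4 members past the threshold, and 0 with p floored. Kcnn1, a small-conductance channel, had 98 and 123 in mock and 93 and 99 with Pdk3, and Kcnn2, the small-conductance channel best known in atria, 18 and 38 against 15 and 22. The intermediate-conductance Kcnn4 had 77 and 75 against 67 and 73. Kcnmb1 had 74 and 81 against 81 and 75. The log2 fold changes ran from -0.51 for Kcnn2 to 0.01 for Kcnmb1. The widest 95% confidence interval among them was that of Kcnn2, from -1.35 to 0.34.

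Pacemaker channels open on hyperpolarisation and carry sodium and potassium. Hcn4, the main gene of this family in the sinus node and in the embryonic heart, had 1150 and 1145 in mock and 1197 and 1170 with Pdk3. Its groups did not overlap, but the difference of 0.04 ± 0.02 on the log2 scale did not pass (adjusted p = 0.216), and its sign turned when ribosomal protein genes were set level. Hcn2, found in ventricular as well as nodal cells, had 245 and 238 in mock and 296 and 275 with Pdk3, a log2 fold change of 0.24 ± 0.06 (adjusted p = 0.0223, floored 0.0424). That call ended with ribosomal protein genes set level (adjusted p = 0.0693).

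Sodium channel alpha subunits form the pore that carries the upstroke. Of the 6 measured genes 1 rose and 1 fell. The rise was that of Scn1a, best known as a neuronal sodium channel. Its counts (ENSRNOG00000053122, rn6 chromosome 3, 52381975 to 52510507, minus strand) were 356 and 369 in mock and 461 and 445 with Pdk3, a mean of 362.5 ± 9.2 against 453.0 ± 11.3 and a log2 fold change of 0.32 ± 0.04 (adjusted p = 0.00186, floored 0.00186). Of the neuron and Schwann cell markers, 0 of the 2 that were tested were called, among them Tubb3 (137 and 119 in mock, 141 and 130 with Pdk3). Scn2a and Scn3a, which lie 44.7 kb apart on the same chromosome, ranged from 9 to 19 and did not pass, and Scn7a, 266.7 kb from Scn1a, had 2 and 6 in mock and 8 and 7 with Pdk3, below the minimum. Scn10a had 17 and 13 in mock and 10 and 8 with Pdk3 (log2 fold change -0.67, adjusted p = 0.144). Scn4a, the sodium channel of skeletal muscle, had 59 and 51 against 42 and 61.

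Of the 3 sodium channel beta subunit genes 1 fell. Scn4b had 207 and 200 in mock and 128 and 131 with Pdk3 (ENSRNOG00000026679, rn6 chromosome 8, 49441106 to 49456279, plus strand). The mean was 203.5 ± 4.9 in mock and 129.5 ± 2.1 with Pdk3, and the difference on the log2 scale was -0.65 ± 0.07 (adjusted p = 0.000676, floored 0.000676), the smallest adjusted p among the 59 members. Scn3b had 1430 and 1485 in mock and 1478 and 1443 with Pdk3. The groups overlapped, and its log2 fold change of 0.00 did not pass (95% confidence interval -0.06 to 0.06), although it passed as lower when ribosomal protein genes were set level (-0.08, adjusted p = 0.0271). The neighbour Scn2b, 13.4 kb from Scn4b, was below the minimum with values of 4, 3, 3 and 2. The symbol rule also took in 2 genes that are not voltage-gated sodium channels. Scnn1a, a subunit of the epithelial sodium channel, had 43 and 33 in mock and 25 and 16 with Pdk3 (log2 fold change -0.88 ± 0.26, adjusted p = 0.0468, and 0.0609 floored; -0.57 without Pdk3 2), and Scnm1, a splicing factor, had 174 and 167 against 172 and 168.

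**Figure D3:**
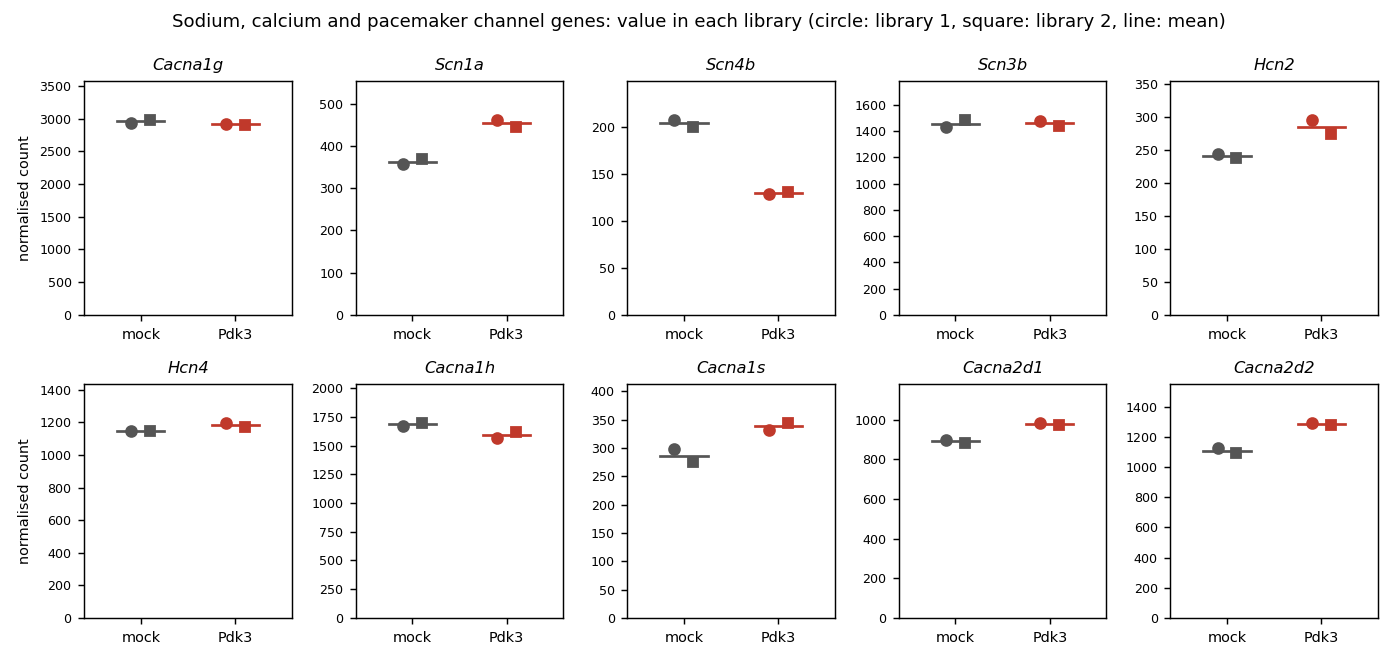
Normalised count of 10 sodium, pacemaker and calcium channel genes in each library, mock in grey and Pdk3 in red, with a line at the group mean and each vertical axis starting at 0. Scn4b shows the widest gap relative to its level, with 200 to 207 in mock and 128 to 131 with Pdk3, whereas the groups overlap in Scn3b.

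Among the calcium channel pore subunit genes measured, which do not include Cacna1c, 1 of 6 rose and 1 fell. Cacna1s, the pore of the skeletal muscle calcium channel, rose from 298 and 275 in mock to 332 and 344 with Pdk3, by 0.24 ± 0.06 on the log2 scale (adjusted p = 0.0194, floored 0.0298). With ribosomal protein genes set level its adjusted p was 0.0558. The low-voltage-activated, or T-type, channels of the embryonic and newborn heart are encoded by Cacna1g and Cacna1h. Cacna1h had 1675 and 1698 in mock and 1567 and 1617 with Pdk3, a log2 fold change of -0.08 ± 0.02 that passed limma's test (adjusted p = 0.0356) and did not pass floored at counting noise (0.101). Cacna1g had 2933 and 2977 against 2921 and 2897, and its log2 fold change of -0.02 did not pass (95% confidence interval -0.06 to 0.01). It passed as lower with ribosomal protein genes set level (-0.11, adjusted p = 0.000269). Cacna1a, the pore of a mainly neuronal channel, had 267 and 229 against 263 and 260. Cacna1d, a pore subunit used in nodal and atrial cells, had 25 and 15 against 25 and 21, and Cacna1b had 13 and 16 against 15 and 23. These 3 genes had overlapping groups and did not pass.

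Auxiliary subunits of calcium channels bring the pore to the membrane and alter its gating. Of 6 measured genes 2 rose and 0 fell, and both were alpha2delta subunits, the extracellular part. Cacna2d2 (ENSRNOG00000015835, rn6 chromosome 8, 116154736 to 116284985, plus strand) had 1125 and 1090 in mock and 1292 and 1276 with Pdk3, a log2 fold change of 0.21 ± 0.03 (adjusted p = 0.00108, floored 0.00108). Cacna2d1, the alpha2delta gene best known from heart and skeletal muscle, had 895 and 884 against 983 and 972, a log2 fold change of 0.14 ± 0.03 (adjusted p = 0.008, floored 0.0308). With ribosomal protein genes set level the call of Cacna2d1 ended (log2 fold change 0.05, adjusted p = 0.243) and that of Cacna2d2 did not (0.13, adjusted p = 0.00172). The cytoplasmic beta subunit gene Cacnb2 had 704 and 704 in mock and 745 and 722 with Pdk3, without overlap (adjusted p = 0.2). Cacnb1 (123 and 115, 110 and 120) and Cacnb3 (136 and 150, 131 and 159) overlapped. Cacng6, a gamma subunit gene, had 124 and 127 against 114 and 109 and did not pass (adjusted p = 0.192).

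Over all potassium channel genes, 2 of 33 rose and 8 fell, 6.06% and 24.2% against 11.7% and 11.3% of all genes tested, with a median log2 fold change of -0.07. The 8 include Kcnab1, which entered through its mock values alone. Of the 26 sodium, calcium and pacemaker channel genes with the other Scn symbols 5 rose and 4 fell, 19.2% and 15.4%, with a median of 0.01. With p floored at counting noise the counts were 1 and 6, and 5 and 2. With ribosomal protein genes set level they were 3 and 13, and 2 and 7. The share of higher among called genes was then 18.8% and 22.2%, against 20.6% over all genes, so the groups were alike in direction with that scaling. The difference between these groups of genes was not tested.

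Further lists hold genes that act with these channels or beside them. Among 22 measured partners and regulators of channels 2 rose and 3 fell (2 and 2 floored at counting noise), with a median of -0.01. The share called, 22.7%, was near the 22.9% of all genes tested. Abcc9, the sulfonylurea receptor that surrounds the pore of ATP-sensitive channels in heart, had 2413 and 2402 in mock and 2181 and 2206 with Pdk3 (log2 fold change -0.13, adjusted p = 0.00154), the same direction as Kcnj11. Nedd4l, a ubiquitin ligase that takes sodium channels from the membrane, fell from 517 and 544 to 473 and 457 (adjusted p = 0.0147), and Gpd1l, an enzyme that affects the sodium current, rose from 597 and 623 to 686 and 680 (adjusted p = 0.0123), a call that ended with ribosomal protein genes set level (0.154).

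Of 18 pumps and exchangers, which maintain the ion gradients, 3 rose and 2 fell (1 and 2 floored), 27.8% called against 22.9% of all genes, with a median of 0.01. Atp1b2, a beta subunit of the sodium pump, fell from 646 and 622 to 468 and 525 (-0.35 on the log2 scale, adjusted p = 0.00376).

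Of 29 ion channels of other families 4 rose and 3 fell (3 and 0 floored), 24.1% called and so near the background, with a median of -0.01. Clcn6, a chloride transporter of endosomes, rose from 330 and 328 to 408 and 445 (adjusted p = 0.00227). The lysosomal channel Tmem175 had 275 and 265 against 225 and 233 (adjusted p = 0.0194, and 0.0599 floored). Of 17 transcription factors of conduction tissue and channel genes 2 rose and 1 fell, also when floored, 17.6% called against 22.9% of all genes, with a median of -0.06. Etv1, a factor of fast-conducting atrial and Purkinje cells, rose from 262 and 272 in mock to 414 and 391 with Pdk3 (0.59 on the log2 scale, adjusted p = 0.000245). Mef2c, a muscle factor, rose from 738 and 768 to 925 and 950 (adjusted p = 0.000472). Irx3, a factor of the ventricular conduction system, fell from 289 and 266 to 217 and 239 (-0.28, adjusted p = 0.0241).

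With 1 library left out, a group holds a single library, and limma called no gene of the whole table, members included. The groups did not overlap in any of the 19 called members, so leaving out 1 library could not turn their direction. Scn4b lay between -0.67 and -0.62 on the log2 scale in these fits, Kcnk3 between -0.50 and -0.42, and Scn1a between 0.29 and 0.35. These 3 genes passed the threshold under every alternative run on all 4 libraries.

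**Figure D4:**
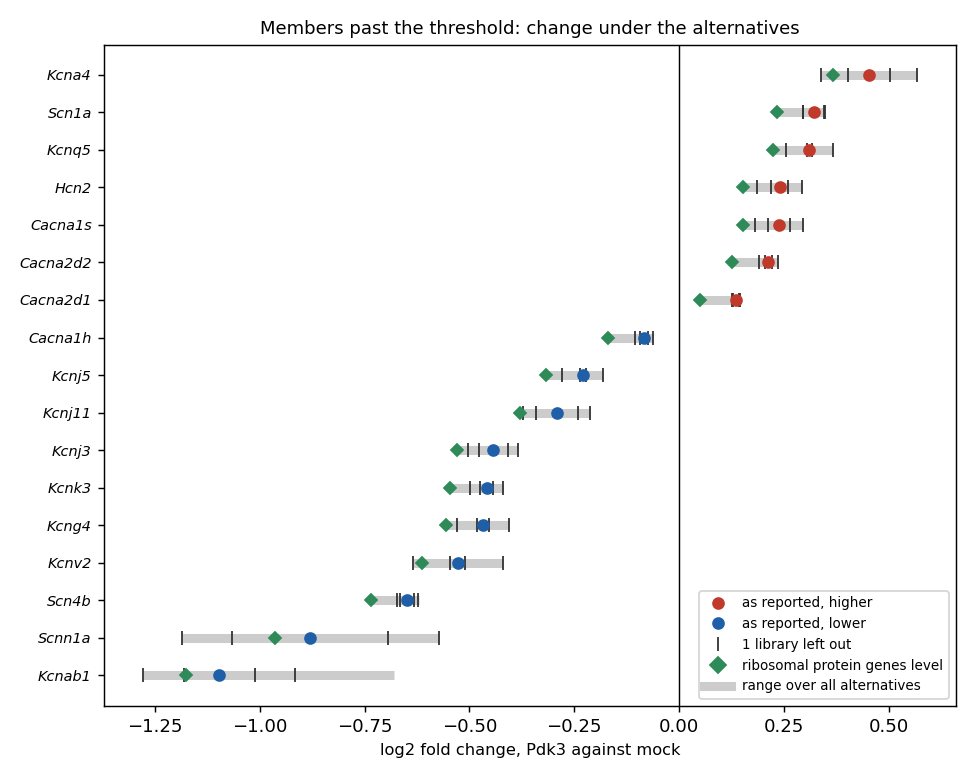
Log2 fold change of 17 of the 19 members past the threshold, as reported (red, higher; blue, lower), with 1 library left out (ticks), with ribosomal protein genes set level (green diamonds), and the range over all alternatives (grey bars). No bar crosses 0, which for the ticks had to be so because the groups do not overlap in these members. The bars of Scnn1a and Kcnab1, which have counts under 50, are the widest.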

How the data were processed

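The 4 mRNA libraries were compared, 2 per group. A stranded mRNA kit was used on 1 µg of column-purified total RNA, per the labels' protocols. Tools in the submitters' processing notes are STAR 2.6.1d, featureCounts 1.6.5, Trimmomatic 0.39, FastQC and DESeq2 1.26.0, for the build rn6 and without settings. The deposited values are used as a score: read counts per gene that the authors normalised between libraries and rounded to whole numbers. Scaling factors estimated from the steps in these values were 1.0255 and 1.0567 for mock and 0.9246 and 0.9627 for Pdk3, and multiplying by them gives approximate reads. No other gene of the table overlaps a member. How strand and duplicates were handled is not given in the sources used here, so reads from antisense transcripts cannot be told apart.

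Values were tested as log2(value + 1) with limma 3.58.1 in R 4.3.3 (eBayes with an intensity trend, group as the single term, 2 residual and 5.56 prior degrees of freedom, two-sided), over the 12838 genes that reached 10 in 2 or more libraries, with Benjamini-Hochberg adjustment at 0.05. Fold changes on this scale understate those of low genes. Errors are SDs over 2 libraries or limma's standard errors. Precision at this depth cannot be better than counting error, and without molecular identifiers a read is not an independent molecule. The members, gene lists and tests were chosen with earlier results of these data known. Named are all members past the threshold, the 2 of highest mean per class, a roster of heart channel genes, those nearest the level minimum, and up to 3 called genes per further list; remaining members are given for completeness. Some genes that these rules name are not reported here. The alternatives tried were leaving out each library, a replicate block, TMM-type scaling, scaling to 66 ribosomal protein genes, no filter, a minimum of 50, pseudocounts of 0.5 and 8, no intensity trend, and p floored at counting noise.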

Additional observations from a re-analysis of the deposited data

How the results depend on the processing

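TMM-type scaling and pseudocounts of 0.5 and 8 left 7 members higher and 12 lower, and a minimum of 50 left 7 and 10. Without a filter on low values 4 members were higher and 6 lower, and without an intensity trend 1 and 3. Scaled to ribosomal protein genes 20 were lower. For all genes the counts were 558 and 418 without a filter, 526 and 325 without a trend, and 928 and 3574 scaled to ribosomal protein genes, and 957 were lower with p floored. Scaled to ribosomal protein genes, the higher and lower counts were 1 and 10 for channel partners, 1 and 8 for pumps and exchangers, 2 and 7 for other channels, and 10 transcription factors were lower. Without a filter they were 0 and 1 for partners, 1 and 0 for pumps, 0 and 0 for other channels, and 0 transcription factors were lower. Without a trend they were 0 and 0 for partners, 1 and 0 for pumps, 0 and 0 for other channels, and 0 transcription factors were lower. Floored, 1 pump or exchanger was higher and 0 other channels lower. Lower transcription factors numbered 2 with TMM-type scaling, 2 with a pseudocount of 8 and 3 with a minimum of 50. The cause of these differences was not tested. Fits without Mock 1, Mock 2, Pdk3 1 or Pdk3 2 gave 0 calls by limma over the whole table and in each list, with 1560 to 1626 genes higher and 1354 to 1727 lower at an unadjusted p under 0.05.

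Labels give both groups replicate numbers 1 and 2. Same-numbered libraries did not deviate together (correlation 0.00356 over 10583 genes with a mean of at least 50). Because the spread within each group lay below counting noise, this correlation cannot tell whether same-numbered libraries were paired. With the replicate block 7 members were higher and 11 lower, Kcnab1 being lost (adjusted p = 0.0546), and the call of no other named member changed.

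Among the 40 named members, signs turned only in some that did not pass. In members whose groups do not overlap, leaving out 1 library could not turn the sign. With 1 library left out the log2 fold change ranged from -0.121 to 0.58 for Cacna1d, -0.04 to 0.794 for Kcnab3, -0.06 to 0.006 for Kcnh2, -0.012 to 0.074 for Kcnj2, -0.266 to 0.149 for Kcnj8, -0.206 to 0.123 for Kcnk2, -0.055 to 0.074 for Kcnmb1, -1.024 to 0.014 for Kcnn2, -0.024 to 0.03 for Scn3b and -0.033 to 0.025 for Scnm1. Scaled to ribosomal protein genes it was -0.028 for Cacnb2, -0.043 for Hcn4, -0.056 for Kcnj2, -0.077 for Kcnmb1 and -0.084 for Scn3b, the last with an adjusted p of 0.0271. With TMM-type scaling it was 0.002 for Scnm1.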

Other observations

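Kcnk5, a tandem-pore potassium channel gene below the level minimum and chosen after its values were seen, had 2 and 2 in the mock libraries and 9 and 9 with Pdk3. At such counts no fold change is given.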
